A study of Mus musculus with 6 samples.

Results

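The genes described here serve protein folding, import and disposal in the endoplasmic reticulum (ER), the compartment where secreted and membrane proteins are made. They were chosen by symbol: 34 genes of the 55450 listed, of which 33 were among the 12891 genes with enough counts to be tested. They were measured in mouse embryonic stem cells lacking Hoxd12, which encodes a homeobox protein, and in wild-type cells. Per the labels, the knockout group (Hoxd12-/-) and the Wild Type group were both C57BL6 embryonic stem cells labelled with the stage E3.5 embryo and cultured in mES+2i. Each group had 3 libraries of messenger RNA. The design text asks how the transcriptomes of the genotypes differ. How the knockout was made, and whether each group is 1 line or several, is not given in the sources used here. Nothing in the labels says that the replicates were separate cultures, so the p-values reflect the spread among these 6 libraries only, and that spread may be technical.

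Proteins enter the ER through the Sec61 channel, lose their signal peptide to signal peptidase, and are folded by the chaperone BiP with its partners, by disulfide isomerases and by the lectins calreticulin and calnexin. Proteins that fail to fold are sent back to the cytosol for destruction, which is called ER-associated degradation (ERAD). When unfolded protein builds up, the sensors IRE1 (gene Ern1), ATF6 and PERK raise the transcription of many of these genes, in part through the factor XBP1; this is the unfolded protein response.

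Library totals lay between 5412577 and 6280934 expected counts, where a count of 3 equals 0.478 to 0.554 CPM (counts divided by library size); this floor reflects counting error alone. Hoxd12 had 0 counts in all 6 libraries, which leaves the genotypes unchecked by their target. Knockout replicate 2 stood apart. Its counts differed from those of the other knockout libraries with a chi-square per degree of freedom of 12.0 and 13.6, against 1.98 to 2.51 for all other pairs within a group. Without the gene with the largest part in each pair, CT010467.1 in both pairs with replicate 2, the values were 5.69 and 6.94, against 1.91 to 2.38. The summed level of 10 embryonic stem cell markers was 8889 to 9392 CPM in the knockout and 8745 to 9363 CPM in the wild type, while among them Zfp42 rose and Nanog fell. Of 12 fibroblast markers, 6 were at 0 in every library, Col3a1, Dcn and Lum among them, and the list summed to 7.37 to 11.6 CPM in the knockout and 12.5 to 17.3 CPM in the wild type; of the 2 tested, Thy1 fell. The 10 markers of primitive endoderm, a secretory lineage of the early embryo, summed to 70.1 to 74.4 CPM in the knockout and 52.1 to 63.6 CPM in the wild type, and 3 of the 4 tested (Gata4, Col4a1 and Col4a2) rose while Sox7 was at 0. The 8 trophectoderm markers summed to 102.7 to 118.9 CPM and 113.5 to 127.5 CPM, ranges that overlap. The part of these marker genes in the results below was not tested.

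Of the 33 tested genes, 1 rose in the knockout (Pdia4) and 8 fell (Manf, Sdf2l1, Pdia6, P4hb, Creld2, Derl2, Sec61b and Ssr2). A gene is called here when the Benjamini-Hochberg adjusted p of edgeR's quasi-likelihood test, taken over all genes tested, is below 0.05. The 9 calls are 27.3% of the tested genes, and 26.5% of all genes tested were called. Falls made up 24.2%, against 14.4% of all genes, and the single rise 3.03%, against 12.1%. The median log2 fold change (knockout minus wild type) was -0.04, against 0.02 over all genes, and 22 of the 33 lay below 0. The libraries of the groups did not overlap in 17 of the genes, while 39.7% of all genes tested had groups that did not overlap. The largest called change was that of Derl2, and the log2 fold changes of the called genes ran from -0.40 to 0.26. Without knockout replicate 2 the counts were again 1 and 8. Because these are bulk libraries, fewer cells of a type and less RNA per cell cannot be told apart.

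**Figure D1:**
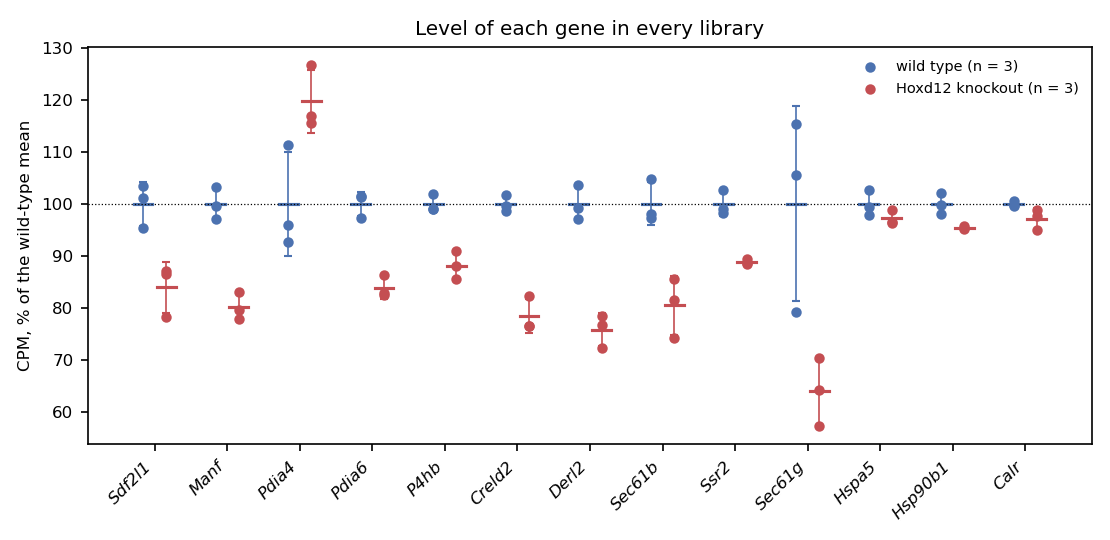
Level of the called genes and of named uncalled genes in each library, as a percentage of that gene's wild-type mean in CPM; points are single libraries, bars show the mean and SD (n = 3 per group), and the axis does not start at 0. The knockout libraries of Manf, Pdia6, P4hb, Creld2, Derl2, Sec61b, Ssr2 and Sdf2l1 all lie below the wild-type libraries, those of Pdia4 above, and those of Hspa5 overlap them.

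Many ER chaperone genes carry the ER stress response element (ERSE), a promoter sequence through which ATF6 and XBP1 act together with the factor NF-Y. Promoters of 300 bases, from 250 before to 50 after the start of the gene, were available for 28 of the 34 genes in a RefSeq table (GRCm38.p6); Atf6, Hyou1, Manf, Derl1, Sec61a1 and Ssr2 were not in it. The sequence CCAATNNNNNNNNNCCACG, searched on both strands, was present in 9 of the 28 genes (32.1%). In the whole table, these 9 included, it was present in 37 of 27025 genes (0.137%) and 39 of 32851 promoters (0.119%). The 9 were Hspa5, Hsp90b1, Dnajc3, Pdia6, Creld2, Calr, Canx, Syvn1 and Derl3. The choice by symbol did not read sequences, but ER chaperone genes are known to carry the element. Its share among these genes is therefore a description and not an independent finding. In the sites below, capitals mark the CCAAT and CCACG ends and positions are GRCm38.p6. Each site is written on the strand that reads CCAAT first. Those of Derl3, Canx, Creld2 and the first of Hsp90b1 read on the minus strand and the others on the plus strand.
Hspa5, chr2:34772025-34772043: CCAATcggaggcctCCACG
Hsp90b1, first site, chr10:86705638-86705656: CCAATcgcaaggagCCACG
Hsp90b1, second site, chr10:86705533-86705551: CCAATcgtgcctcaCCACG
Dnajc3, chr14:118937827-118937845: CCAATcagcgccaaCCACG
Pdia6, chr12:17266491-17266509: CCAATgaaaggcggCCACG
Creld2, chr15:88819520-88819538: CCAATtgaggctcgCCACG
Calr, chr8:84847075-84847093: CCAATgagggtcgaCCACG
Canx, chr11:50325800-50325818: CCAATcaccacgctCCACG
Syvn1, chr19:6046532-6046550: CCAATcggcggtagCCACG
Derl3, chr10:75893242-75893260: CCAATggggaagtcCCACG

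The variant element ERSE-II, ATTGGNCCACG, was found in 12 promoters of the table (0.0365%), among them those of Herpud1 and Dnajb11. Its sites are shown with the fixed bases in capitals.
Herpud1, chr8:94386377-94386387: ATTGGgCCACG
Dnajb11, chr16:22857852-22857862: ATTGGcCCACG

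Of the 8 tested genes with an ERSE, Creld2 and Pdia6 fell and Hspa5, Hsp90b1, Dnajc3, Calr, Canx and Syvn1 were not called. Over all 18 tested genes with the sequence, these 8 included, 2 rose and 4 fell, with a median log2 fold change of -0.02. For comparison, 12.1% of all genes tested rose and 14.4% fell, with a median of 0.02. The element TGACGTGG, bound by ATF6 or XBP1, occurred in 222 promoters (0.676%) and TGATGCAAT, bound by ATF4, in 63 (0.192%); 0 of the 28 genes had either in this window. CCAAT and CCACG both occurred, at any distance, in 20 of the 28 genes (71.4%) and in 13.3% of all genes in the table. A match describes the letters of the window and is not a measured binding site. Only exact matches were counted, so elements with a different base were neither counted nor put in capitals. The promoters of Hspa5, which was not called, and of Creld2 and Pdia6, which fell, are shown whole, on the plus strand, with the ends of the ERSE in capitals. In that of Creld2 the site lies on the other strand, so it reads CGTGG first.
Hspa5, chr2:34771840-34772139: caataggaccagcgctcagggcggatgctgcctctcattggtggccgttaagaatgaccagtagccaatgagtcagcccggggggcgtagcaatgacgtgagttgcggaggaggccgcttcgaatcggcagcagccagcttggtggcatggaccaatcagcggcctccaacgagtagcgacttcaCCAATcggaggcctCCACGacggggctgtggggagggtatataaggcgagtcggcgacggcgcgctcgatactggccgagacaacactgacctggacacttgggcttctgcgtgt
Creld2, chr15:88819396-88819695: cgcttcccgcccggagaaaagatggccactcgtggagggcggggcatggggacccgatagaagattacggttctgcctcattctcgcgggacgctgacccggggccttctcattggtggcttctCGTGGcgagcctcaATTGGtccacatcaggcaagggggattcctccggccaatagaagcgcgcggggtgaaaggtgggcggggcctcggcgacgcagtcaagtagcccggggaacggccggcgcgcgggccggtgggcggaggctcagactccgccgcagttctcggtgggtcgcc
Pdia6, chr12:17266339-17266638: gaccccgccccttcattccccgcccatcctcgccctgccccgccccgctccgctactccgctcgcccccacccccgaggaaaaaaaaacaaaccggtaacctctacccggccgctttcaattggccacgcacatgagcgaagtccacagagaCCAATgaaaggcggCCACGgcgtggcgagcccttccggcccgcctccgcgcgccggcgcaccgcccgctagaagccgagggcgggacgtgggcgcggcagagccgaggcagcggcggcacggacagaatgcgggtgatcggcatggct

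Among the 8 genes of the BiP system, 0 rose and 2 fell, Manf and Sdf2l1, with a group median of -0.07. The falls are 25%, against 14.4% of all genes tested. Hspa5 (ENSMUSG00000026864, chr2:34771970-34777547, GRCm38) encodes BiP itself, the main ER member of the HSP70 family. It was at 339, 331 and 330.5 CPM in the knockout and 352, 341 and 335 CPM in the wild type. The groups overlapped, and the log2 fold change was -0.04 (95% interval -0.13 to 0.05, edgeR adjusted p = 0.547). Hsp90b1 (ENSMUSG00000020048) encodes GRP94, the ER member of the HSP90 family. It was at 606, 604 and 603 CPM in the knockout and 621, 647 and 631 CPM in the wild type, so every knockout library lay below every wild-type one. Its log2 fold change of -0.07 (SE 0.04) was not called (edgeR adjusted p = 0.276).

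Manf (ENSMUSG00000032575, chr9:106838312-106891979) encodes a small secreted and ER-resident protein that binds BiP. Its level was 129, 135 and 127 CPM in the knockout and 158, 168 and 162 CPM in the wild type, without overlap. The means were 130.2 ± 4.33 and 162 ± 5.14 CPM (SD, n = 3 each), and the log2 fold change was -0.32 (SE 0.05, edgeR adjusted p = 7.08e-06). Sdf2l1 (ENSMUSG00000022769, chr16:17130138-17132383) encodes a partner of the BiP J-domain proteins. It was at 33.3, 37.1 and 36.8 CPM in the knockout and 44.0, 43.0 and 40.6 CPM in the wild type. All knockout libraries were lower, and the log2 fold change was -0.25 (SE 0.09, edgeR adjusted p = 0.0284). The call on Sdf2l1 was the least stable of the 9: it was held under 10 of 18 alternative settings, and was lost without knockout replicate 1, wild-type replicate 1 or wild-type replicate 2. Manf overlaps Rbm15b on its own strand, and some of its reads were shared between genes, so its value is uncertain to that extent; Rbm15b itself had a log2 fold change of 0.14 (adjusted p = 0.276). On the other strand Manf overlaps Dcaf1 (-0.03, adjusted p = 0.868) and Gm37612, which had 11 to 17 counts in the knockout and 22 to 37 in the wild type and fell with Manf (-1.01, adjusted p = 0.0133).

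The remaining genes of the BiP system were not called, and the groups overlapped in all of them. Hyou1, a large HSP70-like nucleotide exchange factor for BiP, had a log2 fold change of 0.02 (95% interval -0.10 to 0.14). The J-domain co-chaperones Dnajb11, Dnajc3 and Dnajb9 had -0.13 (-0.29 to 0.03), -0.08 (-0.38 to 0.22) and 0.25 (-0.33 to 0.83). Dnajb9 was low, at 2.92 to 6.403 CPM over the 6 libraries, and its interval is correspondingly wide.

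The disulfide isomerases and the associated Creld2 were the group with the highest share of calls, 4 of 5. This is 80%, against 26.5% of all genes tested, with 1 higher and 3 lower and a median of -0.18. These enzymes form and rearrange disulfide bonds. Pdia6 (ENSMUSG00000020571, chr12:17266545-17284770) was at 353, 355 and 370.1 CPM in the knockout and 417, 435 and 434 CPM in the wild type. Means of 359.6 ± 9.13 and 428 ± 10.1 CPM (SD, n = 3 each) gave a log2 fold change of -0.25 (SE 0.04, edgeR adjusted p = 4.26e-05). P4hb (ENSMUSG00000025130, chr11:120560298-120573253), the founding protein disulfide isomerase and a subunit of prolyl 4-hydroxylase, was at 519.7, 535 and 553 CPM in the knockout and 619, 602 and 602 CPM in the wild type. Both genes were lower in every knockout library. The log2 fold change of P4hb was -0.18 (SE 0.04, edgeR adjusted p = 0.00226), and with the median of its chromosome set to 0 it was -0.06 and not called (adjusted p = 0.37).

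Creld2 (ENSMUSG00000023272, chr15:88819646-88826683) encodes an ER protein with EGF-like domains that has isomerase activity. It was at 67.1, 72.04 and 67.1 CPM in the knockout and 86.5, 89.1 and 87.1 CPM in the wild type. The groups lay far apart relative to their spread, 68.7 ± 2.85 against 87.6 ± 1.37 CPM (SD, n = 3 each), and the log2 fold change was -0.35 (SE 0.06, edgeR adjusted p = 6.08e-05). Creld2 was called under all 18 alternative settings, the only one of the 9 called genes of which this holds. Pdia4 (ENSMUSG00000025823, chr6:47796141-47813430), an isomerase with several thioredoxin-like domains, went the other way, at 152, 154 and 167 CPM in the knockout and 147, 126 and 122 CPM in the wild type. Its log2 fold change was 0.26 (SE 0.06, edgeR adjusted p = 0.00147), but 0.10 and not called with the median of its chromosome set to 0 (adjusted p = 0.216). Pdia3, which works with the lectins on glycoproteins, had a log2 fold change of -0.02 (95% interval -0.12 to 0.07, adjusted p = 0.758).

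Neither lectin chaperone was called by edgeR or DESeq2, and 0 had an unadjusted p below 0.05. Calr (ENSMUSG00000003814) encodes calreticulin, the soluble lectin, and was at 868, 878 and 843 CPM in the knockout and 887, 894 and 884 CPM in the wild type. All knockout libraries were lower by a small margin, and the log2 fold change was -0.04 (95% interval -0.13 to 0.05, edgeR adjusted p = 0.527). Calr lies on chromosome 8, where the median gene was higher in the knockout by 0.17; with that median set to 0 it was called, at -0.21 (adjusted p = 4.56e-04). In TPM, which divides by transcript length, it averaged 472 in the knockout and 415 in the wild type, and its listed length was 6.56% shorter in the knockout. Canx, the membrane-bound calnexin, had a log2 fold change of -0.01 (95% interval -0.10 to 0.08) and overlapping groups.

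Of the sensor genes Atf6 and Ern1 and the factor Xbp1, edgeR called 0, with 0 at an unadjusted p below 0.05, and 0 were called under any of the 18 alternatives, DESeq2 and limma included. The third sensor, PERK (gene Eif2ak3), is outside the set of 34 and was called higher, as given with the wider pathway. Xbp1 (ENSMUSG00000020484), whose messenger RNA is spliced by IRE1, was at 29.3, 27.98 and 31.9 CPM in the knockout and 33.4, 31.9 and 32.0 CPM in the wild type. The knockout libraries were the lower ones, by a margin of less than 1 CPM between the nearest libraries, and the log2 fold change was -0.12 (95% interval -0.32 to 0.08, adjusted p = 0.392). Gene-level counts do not separate the spliced from the unspliced form. Atf6 (ENSMUSG00000026663) was at 14.4, 14.9 and 15.4 CPM in the knockout and 18.7, 14.5 and 12.0 CPM in the wild type, with overlapping groups and a log2 fold change of -0.01 (95% interval -0.32 to 0.29, adjusted p = 0.96). Ern1 (ENSMUSG00000020715) was at 3.68, 3.40 and 3.54 CPM in the knockout and 4.02, 3.91 and 2.58 CPM in the wild type. The groups overlapped, and at this depth its interval reached from -0.60 to 0.63 around a log2 fold change of 0.02 (adjusted p = 0.975).

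Of the 8 ERAD genes, 7 were tested and 1 was called (14.3%, against 26.5% of all genes tested). Derl2 (ENSMUSG00000018442, chr11:71007164-71019841) encodes a derlin, a membrane protein of the channel through which misfolded proteins leave the ER. It was at 29.8, 30.4 and 28.02 CPM in the knockout and 40.2, 38.4 and 37.6 CPM in the wild type. Every knockout library was lower, and the log2 fold change was -0.40 (SE 0.09, edgeR adjusted p = 0.00135). Derl2 overlaps Mis12 on the other strand, whose log2 fold change was -0.27 (adjusted p = 0.0722); whether counting used strand is not given in the sources used here, so reads of the pair cannot be told apart with certainty. Its relative Derl1 had a log2 fold change of -0.07 (adjusted p = 0.619). Derl3 was below the filter, with 6 counts in each knockout library and 3, 10 and 7 in those of the wild type.

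Herpud1, a membrane protein that assembles the degradation complex, was at 17.3, 17.8 and 19.1 CPM in the knockout and 14.7, 13.8 and 14.4 CPM in the wild type. It was higher in every knockout library but missed the threshold (log2 fold change 0.34, SE 0.13, edgeR adjusted p = 0.0538). The ligase Syvn1 (HRD1) and its partner Sel1l had log2 fold changes of 0.16 (adjusted p = 0.259) and 0.05 (adjusted p = 0.82). The mannosidase-like proteins Edem1 and Edem2, which mark glycoproteins for disposal, had 0.09 (adjusted p = 0.449) and -0.03 (adjusted p = 0.83).

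**Figure D2:**
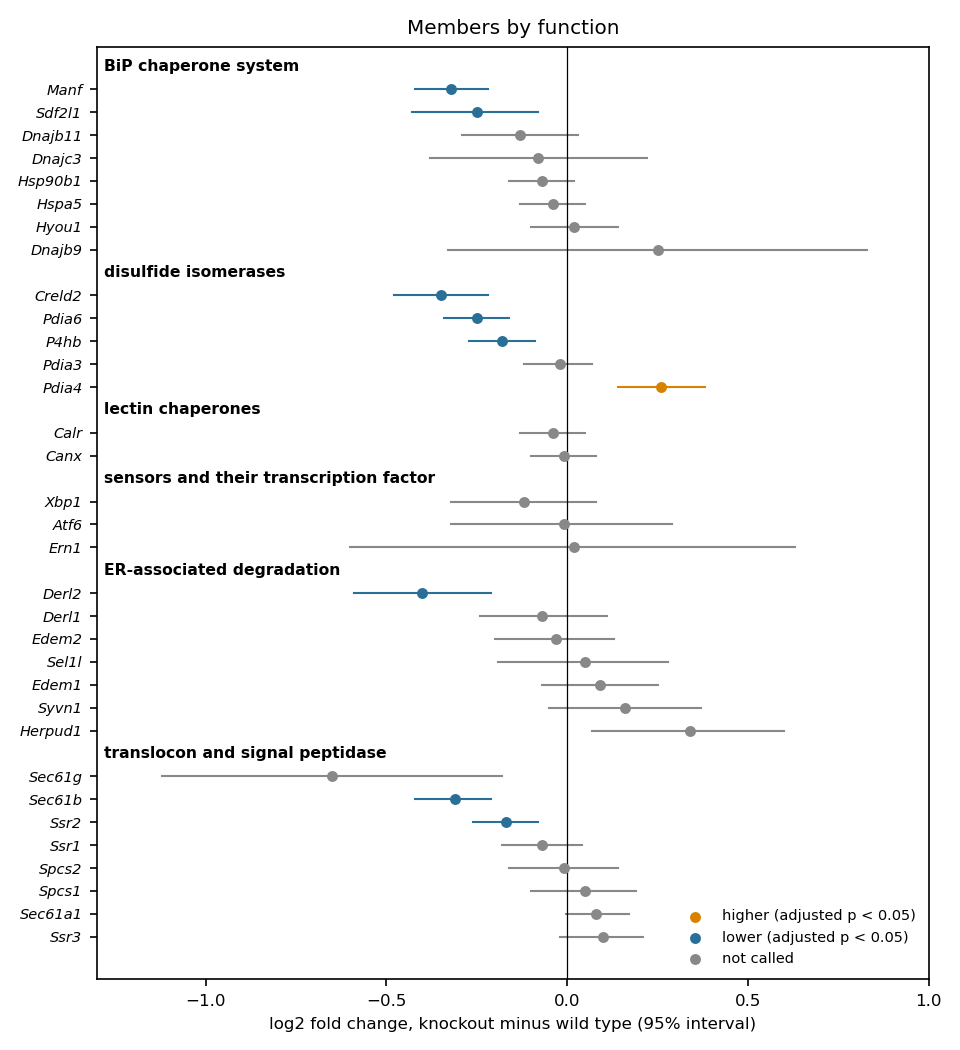
Log2 fold change (knockout minus wild type) of the 33 tested genes by function, with 95% intervals from the edgeR fit; colour marks calls at an adjusted p below 0.05. Pdia4 is the only called gene right of 0, and the 8 genes called lower run from -0.17 (Ssr2) to -0.40 (Derl2).

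Among the 8 genes of the translocon and signal peptidase, 0 rose and 2 fell (25%, against 14.4% of all genes tested). Groups did not overlap in 6 of the 8, and in 39.7% of all genes tested. The 3 genes of the Sec61 channel did not share a direction in the edgeR fit, and each lies on a different chromosome. Sec61a1 (ENSMUSG00000030082), the pore-forming subunit, was at 234, 230.1 and 225 CPM in the knockout and 209.9, 220.2 and 219 CPM in the wild type. It was higher in every knockout library and not called (log2 fold change 0.08, SE 0.04, edgeR adjusted p = 0.154). Sec61a1 lies on chromosome 6, whose median was 0.16, and less that median its value was -0.07. Sec61b (ENSMUSG00000053317, chr4:47474658-47483242), a small tail-anchored subunit, was at 147, 155 and 134 CPM in the knockout and 177, 175 and 189 CPM in the wild type. It was lower in every knockout library (log2 fold change -0.31, SE 0.05, edgeR adjusted p = 2.00e-05). With a correction for length and GC content its log2 fold change was -0.09 and the call was lost (adjusted p = 0.18).

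Sec61g, the other small subunit, had the largest change of all 33 genes, -0.65, and was not called (SE 0.18, edgeR adjusted p = 0.0625). It was at 62.1, 76.4 and 69.6 CPM in the knockout and 85.8, 124.9 and 114 CPM in the wild type, with no overlap but a wide spread in the wild type. Less the median of chromosome 11, where it lies (-0.12), its value was -0.53. It was called under 8 of the 18 alternative settings, with adjusted p between 1.80e-08 and 0.179; these included DESeq2 and the fits without wild-type replicate 1 or 2. In TPM the ratio of Sec61b to Sec61a1 was 4.40, 4.65 and 4.07 in the knockout, against 5.97, 5.70 and 6.15 in the wild type. The ratio of Sec61g to Sec61a1 was 1.29, 1.59 and 1.46 against 1.99, 2.71 and 2.51. Both ratios were lower in every knockout library. This follows from Sec61a1 lying higher, and Sec61b and Sec61g lower, in each of those libraries. The ratios were not planned in advance and are no separate evidence. Sec61b and Sec61g are under 1000 bases, where the median of all genes was -0.17. Sec61a1 is between 3000 and 4000 bases, where it was 0.06. The part of length and chromosome in these ratios was not tested.

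The translocon-associated (TRAP) complex, which sits beside the channel, had 1 called gene among the 3 of the set. Among all genes tested, 26.5% were called. Ssr2 (ENSMUSG00000041355, chr3:88575876-88588419) was at 297, 300.1 and 298 CPM in the knockout and 345, 333 and 330.3 CPM in the wild type. All knockout libraries were lower (log2 fold change -0.17, SE 0.04, edgeR adjusted p = 0.0029), and after correction for length and GC content the value was -0.06 and not called (adjusted p = 0.338). Ssr1 and Ssr3, of the same complex, had -0.07 (adjusted p = 0.362) and 0.10 (adjusted p = 0.205). The signal peptidase subunits Spcs1 and Spcs2 had 0.05 (adjusted p = 0.691) and -0.01 (adjusted p = 0.925). A pseudogene, Gm10704, overlaps Ssr2, and Ssr2 is 1 of 10 of the 34 genes with a count that was not whole in at least 1 library, as occurs when reads are divided between genes.

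Per transcript length, Calr was the most abundant of the genes in the wild type, at 415 ± 18.3 TPM (SD, n = 3), and Sec61b and P4hb followed at 374 ± 12.1 and 372 ± 10.7 TPM, which did not differ beyond their spread. Ssr2 stood at 320.4 ± 15.8 TPM and Hsp90b1 at 203 ± 3.50 TPM, while Hspa5 was at 121 TPM. The sensors were near the other end, with Atf6 at 1.84 TPM and Ern1 at 0.563 TPM. Summed over all 34 genes, the level was 3096, 2882 and 3150 TPM in the knockout and 3170, 3145 and 3063 TPM in the wild type. The groups overlapped, with means of 3043 ± 142 and 3126 ± 56.1 TPM. In CPM, which does not divide by length and here uses scaled library sizes, the sums were 5400, 5376 and 5382 against 5742, 5771 and 5692. These did not overlap. The median log2 fold change of all genes tested was 0.02 in the edgeR fit. On TPM it was 0.10 with a pseudocount of 1 and 0.11 with 0.1. The part of length and scaling in the sums was not tested.

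Within each library, Creld2 and Manf stood lower relative to Hspa5 in the knockout. The ratio of Creld2 to Hspa5 in TPM was 0.393, 0.433 and 0.401 in the knockout and 0.494, 0.514 and 0.514 in the wild type. That of Manf to Hspa5 was 1.33, 1.40 and 1.31 against 1.52, 1.59 and 1.53. The ratio of Pdia6 to Pdia4 was 2.58, 2.56 and 2.46 in the knockout and 3.16, 3.83 and 3.95 in the wild type. The groups were apart in these 3 ratios. The ratio of Derl2 to Derl1 was 0.716, 0.825 and 0.928 in the knockout against 1.15, 0.83 and 0.944 in the wild type, and the groups overlapped. That of Ssr2 to Ssr3 was 8.97, 8.98 and 8.66 against 11, 10.5 and 10.3, without overlap. Such a ratio shows unequal change and not which gene moved. The pairs were not planned in advance. Each sets a gene called lower over a gene that was not, so the ratios largely restate the values above. Creld2, Manf and Ssr2 have shorter transcripts than the genes they are set against, and shorter genes had lower fold changes across all genes. Pdia4 lies on chromosome 6, whose median was 0.16. The part of length and chromosome in these ratios was not tested.

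Whole chromosomes differed between the groups in these libraries: the median log2 fold change of tested genes was 0.16 on chromosome 6, 0.17 on chromosome 8 and -0.12 on chromosome 11, and 0.02 over all genes. Of the 34 genes, 11 lie on these chromosomes. The genes within 5 Mb of Pdia4 had a median of 0.24 (43 genes), close to its own 0.26, and those around P4hb had -0.18 (129 genes), its own value. Around Herpud1 the median was 0.16. Derl2 was further from its neighbours, -0.40 against -0.11 (156 genes). Sec61g, which was not called, was further still, -0.65 against -0.02 (22 genes). Off chromosomes 6, 8 and 11, 6 of 22 tested genes fell (27.3%) and 0 rose. Of all genes tested, 14.4% fell and 12.1% rose. Around these 6 the medians were 0.12 for Creld2 (56 genes), 0.06 for Sec61b (69 genes) and -0.03 for Manf (133 genes). They were -0.13 for Pdia6 (43 genes) and -0.07 for both Sdf2l1 (103 genes) and Ssr2 (117 genes). Sec61b, Ssr2 and Sdf2l1 were not called after correction for length and GC content. The part of the chromosome shifts in the values of single genes was not tested.

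**Figure D3:**
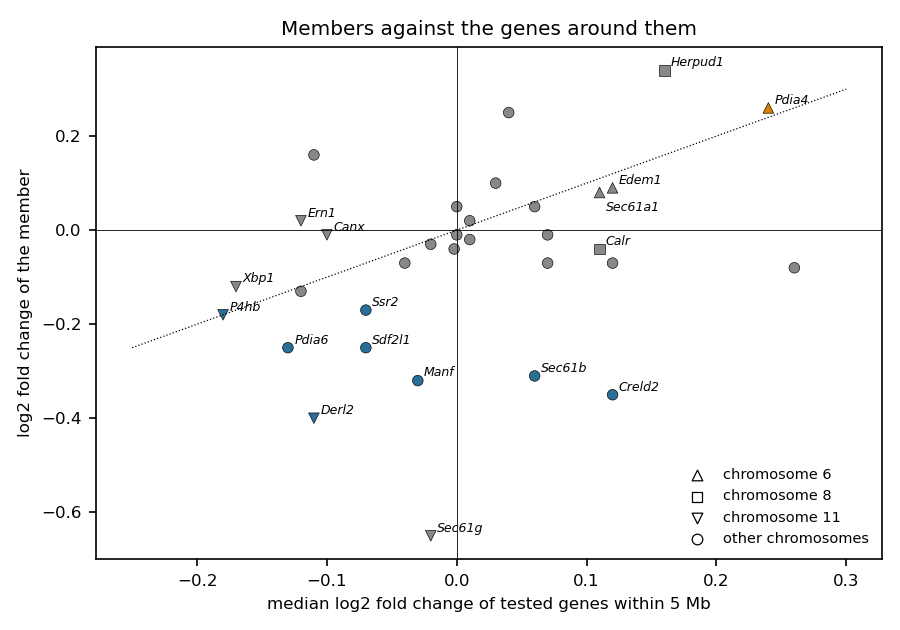
Log2 fold change of each tested gene against the median of the other tested genes within 5 Mb; the dotted line marks equality, orange is a gene called higher, blue one called lower and grey one not called, and the shape gives the chromosome. Pdia4 and P4hb lie on or near the line, and Creld2, Sec61b, Manf, Derl2 and the uncalled Sec61g lie well below it.

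Fold changes also went with transcript length across all genes. The median was -0.17 for genes under 1000 bases, of which 33.8% fell, and 0.11 for those over 6000 bases, of which 4.71% fell. Of the 8 genes that fell, Manf and Sec61b are under 1000 bases, Creld2, Sdf2l1 and Ssr2 between 1000 and 1500, Derl2 and P4hb between 1500 and 2000, and Pdia6 between 2000 and 3000. Pdia6 was the single gene of the 13 between 2000 and 3000 bases that fell, in a range where 9.83% of all genes did. After correction for length and GC content, Manf, Creld2, Pdia6, P4hb, Derl2 and Pdia4 were still called, and Sec61b, Ssr2 and Sdf2l1 were not. The mean length listed for P4hb was itself longer in the knockout (1795, 1721 and 1892 bases) than in the wild type (1596, 1494 and 1559 bases), a difference of 16.3%; a listed length depends on which isoforms were credited with the reads.

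**Figure D4:**
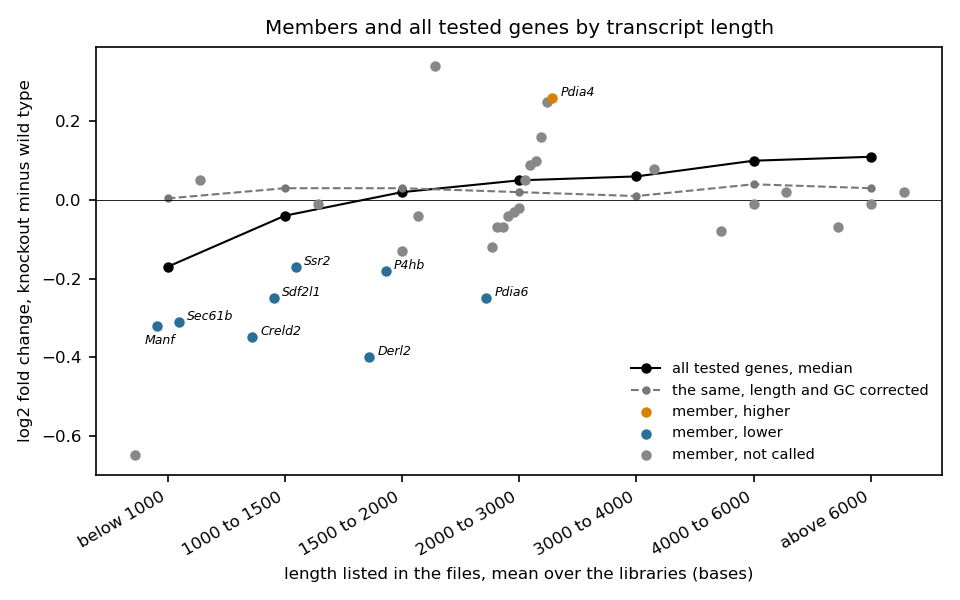
Log2 fold change of the tested genes by listed transcript length, with the median of all tested genes in each length range (black) and the same after correction for length and GC content (grey, dashed); points within a range are spread sideways for legibility. The black line rises from -0.17 below 1000 bases to 0.11 above 6000, and the called genes below 0 are all under 3000 bases.

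The wider pathway was followed in 136 further genes in 6 lists, of which 135 were tested. Of these, 23 rose and 21 fell (32.6% called, against 26.5% of all genes tested), with a median of 0.05. Off chromosomes 6, 8 and 11 it was 13 and 16 of 108 (26.9%). DESeq2 called 10 and 9. The counts were 14 and 12 without knockout replicate 3, 16 and 12 without wild-type replicate 2, and 15 and 13 without wild-type replicate 3.

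Among 15 other stress sensors and effectors, 5 rose and 2 fell (46.7% called, against 26.5% of all genes tested), with a median of 0.19. Eif2ak3 (PERK), the sensor kinase that phosphorylates eIF2 alpha, was at 16.2, 14.9 and 19.2 CPM in the knockout and 9.78, 10.1 and 10.3 CPM in the wild type, without overlap. Its log2 fold change of 0.74 (SE 0.15, edgeR adjusted p = 2.62e-04) was the highest of the 135 genes. Set to the median of chromosome 6, where it lies, the value was 0.59; the call was lost on TPM (highest adjusted p = 0.0564). Atf4, the transcription factor whose translation rises when eIF2 alpha is phosphorylated, was at 371 ± 5.50 CPM in the knockout and 319 ± 10.6 CPM in the wild type (SD, n = 3 each), a log2 fold change of 0.22 (SE 0.04, edgeR adjusted p = 2.60e-04). Eif2ak3 and Atf4 are named after their values were seen. Ppp1r15b, a regulatory subunit of the phosphatase that reverses eIF2 alpha phosphorylation, rose by 0.52 (SE 0.06, edgeR adjusted p = 1.16e-07). Mbtps1, the site-1 protease that cleaves ATF6, rose by 0.40 (adjusted p = 1.47e-06); it lies on chromosome 8, whose median was 0.17. Bok, a BCL2-family protein of the ER membrane, had a log2 fold change of -0.60 (SE 0.15, adjusted p = 0.00257). Ddit3, which encodes the stress factor CHOP, had -0.37 (SE 0.13, adjusted p = 0.028) and was called under 10 of the 18 alternatives; the files list it under a pair of identifiers, so its value is uncertain.

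Of 18 genes for signal recognition and other steps of translocation, 2 rose and 1 fell (16.7% called, against 26.5% of all genes tested). Srp54a, the GTPase of the signal recognition particle, rose by 0.32 (adjusted p = 0.0112) and Sec61a2, an alternative pore subunit, by 0.30 (adjusted p = 0.0463, called under only 4 of the 18 alternatives). Sec62, a partner of the channel, had -0.21 (adjusted p = 0.0138). Of 18 genes of the EMC and GET routes of membrane insertion, 1 rose and 4 fell (27.8% called, near the share of all genes). Among them were Emc3 (0.26), Emc6 (-0.39) and Asna1 (-0.20). Of 20 genes of N-glycosylation, 4 rose and 5 fell (45% called). Rpn1 (0.21, adjusted p = 3.08e-04), Dad1 (-0.41, adjusted p = 1.03e-06) and Ost4 (-0.26, adjusted p = 6.67e-04), subunits of the oligosaccharyltransferase, did not share a direction, and Lman1, a cargo receptor for export, rose by 0.34.

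Of 34 tested genes among other folding enzymes and co-chaperones, 6 rose and 3 fell (26.5% called, the same share as over all genes tested). Calu (calumenin, a calcium-binding protein of the secretory pathway) rose by 0.57 (adjusted p = 1.37e-11) and Fkbp9, a prolyl isomerase, by 0.49 (adjusted p = 8.37e-10); both lie on chromosome 6, whose median was 0.16. Qsox1, a sulfhydryl oxidase, was at 38.1 CPM in the knockout and 73.6 CPM in the wild type on average, a log2 fold change of -0.96 (SE 0.08, edgeR adjusted p = 6.42e-11), the largest fall among the 135 genes. Selenom, a selenoprotein of the ER, had -0.47. Of 30 other ERAD genes, 5 rose and 6 fell (36.7% called). Dnajb14, a J-domain protein of the ER membrane, was at 139.6 against 248 CPM (log2 fold change -0.83, SE 0.06, adjusted p = 4.14e-10) and Ufd1, a cofactor of the extracting ATPase, had -0.30, while the mannosidase Man1b1 rose by 0.27. Among the pathway genes named here, 11 were called under all 18 alternatives: Atf4, Ppp1r15b, Mbtps1, Emc6, Lman1, Dad1, Calu, Fkbp9, Qsox1, Selenom and Dnajb14. Emc3 and Rpn1, both on chromosome 6, were not called with the median of that chromosome set to 0.

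**Figure D5:**
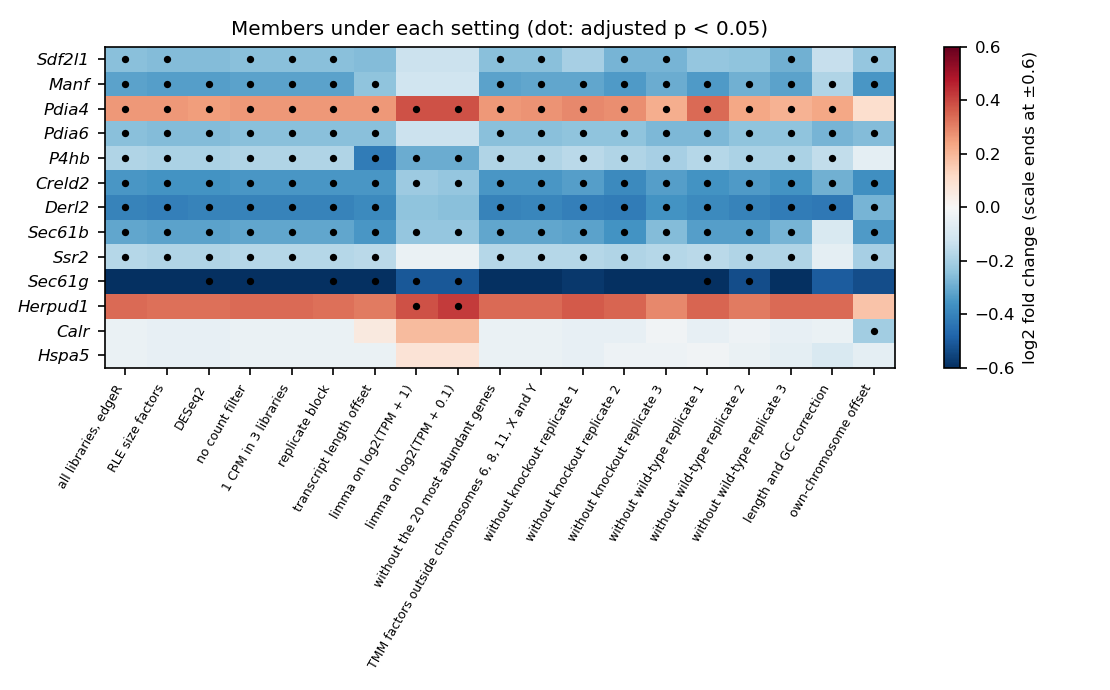
Calls and log2 fold changes of the called genes and of Sec61g, Herpud1, Calr and Hspa5 with all libraries in edgeR (first column) and under the 18 alternative settings; colour gives the log2 fold change, cut at 0.6 either way, and a dot marks an adjusted p below 0.05. Creld2 is called in each, Pdia4 and P4hb are lost when the chromosome median is set to 0, and Sec61b is lost with the correction for length and GC content.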

How the data were processed

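RNA of 3 Hoxd12 knockout and 3 wild-type libraries was measured. The deposited files list expected counts (estimated counts, not always whole and not normalized for depth), TPM and FPKM per gene, per the file headers; the deposited FPKM entered no test. Bowtie 0.12.2, mm8 and mm10 are named in the submitters' processing notes without roles. Which quantifier, annotation and strand setting were used is not given in the sources used here. Every one of the 55450 identifiers matched GENCODE M21 (GRCm38), the source of the symbols and coordinates.

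Expected counts were rounded and fitted with edgeR 4.0.16 in R 4.3.3 (TMM, filterByExpr, robust quasi-likelihood test, group as the only term, Benjamini-Hochberg over 12891 genes, called below 0.05). CPM values use TMM-scaled library sizes. The common biological coefficient of variation was 6.74%. The alternatives were RLE scaling, DESeq2 1.42.0, other count filters, a replicate block, a transcript length offset, log2 TPM with a pseudocount of 1 or 0.1 in limma 3.58.1, dropping the 20 most abundant genes, TMM factors from other chromosomes, and each library left out. A loess correction for length and GC content and an offset by chromosome median were added after seeing the data.

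The genes and lists were chosen with earlier results of these data known, so no list was tested. All genes of the set are accounted for; called ones and Hspa5, Hsp90b1, Xbp1, Atf6, Ern1 and Sec61a1 have values in every library. From each pathway list, up to 2 called genes per direction with the smallest p and a mean of at least 5 CPM are named. Of these, 1 such gene is not reported here. A planned list of genes most like Hspa5 was left out after its values were seen, because Hspa5 hardly varied, and protein sequences were not analysed here.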

Additional observations from a re-analysis of the deposited data

How the results depend on the processing

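Of all genes, 3420 were called; the count was 1988 with DESeq2, 1856 on log2(TPM + 1), 1824 on log2(TPM + 0.1), and 2615 to 3210 with 1 library left out. The numbers of the 33 genes called higher and lower, 1 and 8, were 2 and 4 on both TPM scales; the higher count was 2 with the length and GC correction and 0 with the own-chromosome offset, and the lower count was 7 to 8 with 1 library left out. The other pathway genes, 23 and 21, were 10 and 9 with DESeq2 and 14 and 13 with the length offset; 6 fell on either TPM scale, and 14 to 20 rose and 12 to 20 fell with 1 library left out. With a replicate block, 3353 genes were called, and 1 and 9 of the set, Sec61g being added; same-numbered libraries correlated at 0.004, 0.041 and 0.024, so the numbers were not taken to pair them.

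No called gene changed direction; the uncalled values of Hspa5 and Calr, both -0.04, reached 0.08 and 0.19 on TPM. The split of calls moved most on TPM, to 1107 higher and 749 lower with a pseudocount of 1 and 1086 and 738 with 0.1, from 1559 and 1861, while the median of all genes moved from 0.02 to 0.10 and 0.11. DESeq2 gave 701 and 1287, and the length offset 898 and 1523. Manf (adjusted p = 0.166), Pdia6 (0.189), Derl2 (0.0845), Ssr2 (0.697) and Sdf2l1 were not called on TPM. Among the genes that fell, P4hb, Creld2 and Sec61b were still called there. Sec61g was newly called lower and Herpud1 newly called higher on both TPM scales, and both are in the counts given above for TPM. Hsp90b1 (-0.13) and Ssr1 (-0.17) were called lower and Spcs1 (0.21) higher with the length and GC correction alone. The causes were not tested. Of the 24 tested genes not called, 18 were not called under any alternative. Depth limits Ern1, Dnajb9 and Derl3 most.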
